A study of Mus musculus with 8 samples.

Results

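The genes described here are 36 mouse genes known for the germline and for meiosis, from the factors that set up primordial germ cells to the proteins of the meiotic chromosome axis, the piRNA pathway and early gametes. A gene was read only from probe sets listed with that gene alone, and from the brightest of these over the 8 arrays. On this basis 35 of the 36 genes were measured, out of 18193 genes on the array. Nanos3, an RNA-binding protein that protects primordial germ cells, has no probe set listed with it alone and was not analysed here.

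Germ cells are set aside early in the mouse embryo and later enter meiosis, the divisions that reduce the chromosome set for gametes. In meiosis the sister chromatids are held by cohesin with germline subunits, homologous chromosomes are joined by the synaptonemal complex, and programmed DNA breaks are repaired by recombination between homologues. The piRNA pathway, which works in cytoplasmic granules called nuage, silences transposons in germ cells through PIWI proteins and tudor-domain proteins. In most somatic cells these genes are silent, and DNA methylation at their CpG-rich promoters and repressors such as E2F6 and the MGA and MAX pair are known to keep many of them off. Mouse ES cells are known to transcribe part of this set although they do not enter meiosis.

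The series compared 3 wild-type mouse cell types on whole-genome oligonucleotide arrays. The first were mouse embryonic fibroblasts (MEF, 2 arrays), primary cells grown in serum. The second were neural precursor cells (NPC, 3 arrays), made in culture from ES cells by way of embryoid bodies and a serum-free selection step and then kept in FGF2 and EGF. The third were V6.5 ES cells (ES, 3 arrays), a pluripotent line kept with leukemia inhibitory factor, first on irradiated fibroblast feeders and then for some passages on gelatin without feeders. All groups are of wild-type genotype, and no strain, sex or passage number was used here. Nothing in the labels ties the arrays to separate cultures, and the p-values then cover array-to-array spread alone, which may be technical. Levels are given as quantile normalized log2(intensity + 16). A level of 4 is an intensity of 0, and folds of dim genes are understated on this scale. Levels of different genes come from different probe sets and are not compared with each other.

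Over all probe sets, values correlated at 0.992 between the MEF arrays, at 0.967 to 0.987 between NPC arrays, at 0.986 to 0.989 between ES arrays and at 0.858 to 0.872 between cell types. NPC 1 was the least like its group, and calls of named genes that change without it are given both ways. Of the defining markers, Pou5f1, Fabp7 and Col1a1 followed the labels. Pou5f1, the pluripotency factor, averaged 4.47 in MEF, 4.65 in NPC and 12.01 in ES, while Fabp7 of radial glia averaged 6.29, 12.83 and 4.22 and the collagen gene Col1a1 12.99, 4.15 and 6.15 in the same order. The neural precursor markers were mixed. Of 5, 4 were higher in NPC than in ES, but Pax6 was not called without NPC 1 (0.98). Sox2 averaged 11.07 in NPC and 12.05 in ES, and was called lower in NPC without NPC 1 (-1.25). Olig2 averaged 7.78 in ES, and Nes was higher in MEF than in ES, by 2.96. The fibroblast markers Col1a1, Col1a2 and Pdgfra were also lower in NPC than in ES. Of 6 macrophage markers, 4 were higher in MEF than in ES, among them Lyz2 with means of 8.99 in MEF and 5.00 in ES, while Cd68 was lower, with 6.82 in MEF and 8.13 in ES. The part of such cells in the results was not tested.

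Most of the germline and meiosis genes were near the lower limit of the array in MEF and NPC and well above it in ES. Calls of lower or higher needed a change of 1 log2 unit or more and an adjusted p under 0.05. In MEF, 22 of the 35 measured genes were lower than in ES, 1 was higher and 12 were not called. Of all 18193 genes, 12.8% were called lower and 12.2% higher in this comparison, 25% in all. In NPC, 21 of the 35 were lower than in ES, 1 was higher and 13 were not called, against a background of 12.9% lower and 10% higher, 22.9% in all. The median difference of the 35 genes was -1.94 for MEF minus ES and -1.74 for NPC minus ES, beside -0.04 and -0.05 over all genes. The ES arrays are shared by these 2 comparisons. Total RNA of a culture was measured, so fewer cells with a transcript and less transcript per cell cannot be told apart.

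The same shift was visible array by array. The median level of the 35 genes was 4.54 and 4.34 on the MEF arrays, 4.57, 4.55 and 4.30 on the NPC arrays, and 6.87, 6.69 and 6.59 on the ES arrays. The median of all genes stayed between 5.89 and 6.16 over the 8 arrays. All ES arrays lay above both MEF arrays for 28 of the 35 genes, a placement found for 36.6% of all genes, and above all NPC arrays for 25, found for 29.4%. The reverse placement held for 2 genes in MEF, beside 31.2% of all genes, and for 1 in NPC, beside 23.4%. Of the genes called lower, 17 in MEF and 16 in NPC fell at least 4-fold, with SE of the difference between 0.15 and 0.36 for MEF and between 0.14 and 0.26 for NPC. Of all 18193 genes, 1560 in MEF and 1509 in NPC were called at 4-fold or more, both directions counted together. The spread between arrays of a group was like that of other genes, with a median SD of 0.076 in MEF, 0.23 in NPC and 0.17 in ES, beside 0.073, 0.21 and 0.13 over all genes.

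**Figure D1:**
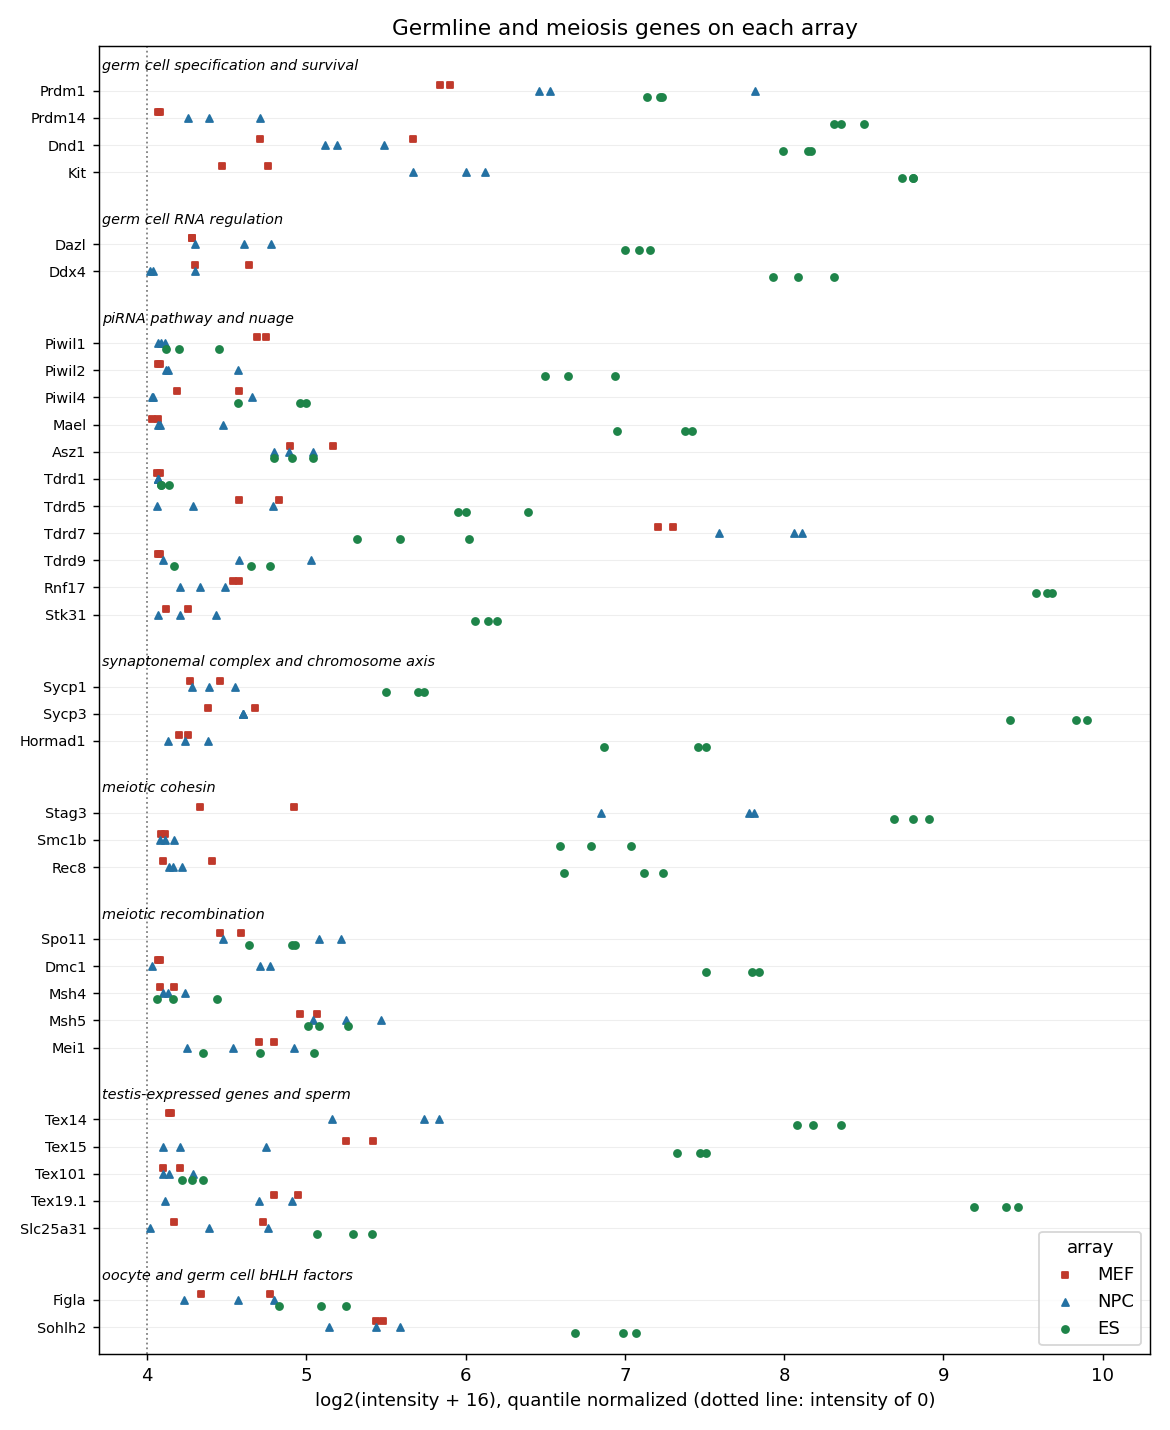
Level of each of the 35 measured genes on every array, as quantile normalized log2(intensity + 16), with squares for MEF, triangles for NPC and circles for ES, and genes grouped by role. The dotted line at 4 marks an intensity of 0. Most genes sit close to that line on MEF and NPC arrays and to the right of it on ES arrays, Tdrd7 runs the other way, and Stag3, Tex14, Kit and Prdm1 have NPC arrays between the line and the ES arrays or beside these.

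The promoters of these genes were read from RefSeq (GRCm38.p6) over 300 bases, from 250 before to 50 after the start site, and 30 of the 36 genes had an entry. They were searched on both strands for TCCCGC, the core of the site bound by E2F6, and for CACGTG, the E-box bound by MGA with MAX. The 250 bases before the start site are shown for 7 genes. Sycp3, Hormad1, Ddx4 and Mael were lower in MEF and NPC than in ES and hold both motifs, Tex19.1 was lower and holds TCCCGC alone, Dazl was lower with neither motif, and Tdrd7 was the gene that was higher. Capitals mark TCCCGC, its reverse complement GCGGGA, and CACGTG, which reads the same on both strands, and no match overlaps another in these stretches.
Sycp3 (chr10:88459337-88459586, plus strand): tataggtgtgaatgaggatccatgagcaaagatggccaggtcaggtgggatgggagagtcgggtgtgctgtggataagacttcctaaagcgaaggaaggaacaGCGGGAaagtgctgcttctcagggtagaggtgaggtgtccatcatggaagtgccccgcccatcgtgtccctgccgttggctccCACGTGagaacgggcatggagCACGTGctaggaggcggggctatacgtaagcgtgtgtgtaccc
Hormad1 (chr3:95559429-95559678, plus strand): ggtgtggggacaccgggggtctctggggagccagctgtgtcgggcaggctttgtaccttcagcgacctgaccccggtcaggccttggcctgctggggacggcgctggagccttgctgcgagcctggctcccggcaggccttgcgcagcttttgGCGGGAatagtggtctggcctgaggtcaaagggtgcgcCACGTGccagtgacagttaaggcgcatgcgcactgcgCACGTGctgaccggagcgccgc
Ddx4 (chr13:112652311-112652560, minus strand): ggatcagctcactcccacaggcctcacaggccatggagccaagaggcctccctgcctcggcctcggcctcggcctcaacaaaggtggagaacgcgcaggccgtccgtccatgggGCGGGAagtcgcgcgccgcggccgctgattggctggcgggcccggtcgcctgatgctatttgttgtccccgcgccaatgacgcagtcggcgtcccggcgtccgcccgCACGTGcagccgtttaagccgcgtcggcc
Mael (chr1:166238745-166238994, minus strand): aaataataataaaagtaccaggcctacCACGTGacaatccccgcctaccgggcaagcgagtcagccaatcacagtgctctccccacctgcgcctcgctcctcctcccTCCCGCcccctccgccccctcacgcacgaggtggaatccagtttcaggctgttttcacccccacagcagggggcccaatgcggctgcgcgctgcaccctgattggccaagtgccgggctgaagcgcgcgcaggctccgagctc
Tex19.1 (chr11:121145893-121146142, plus strand): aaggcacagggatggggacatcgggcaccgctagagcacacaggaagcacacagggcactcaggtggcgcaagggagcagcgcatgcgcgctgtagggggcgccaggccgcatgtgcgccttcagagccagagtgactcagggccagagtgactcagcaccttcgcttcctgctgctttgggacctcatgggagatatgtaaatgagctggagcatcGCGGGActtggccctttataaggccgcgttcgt
Dazl (chr17:50293621-50293870, minus strand): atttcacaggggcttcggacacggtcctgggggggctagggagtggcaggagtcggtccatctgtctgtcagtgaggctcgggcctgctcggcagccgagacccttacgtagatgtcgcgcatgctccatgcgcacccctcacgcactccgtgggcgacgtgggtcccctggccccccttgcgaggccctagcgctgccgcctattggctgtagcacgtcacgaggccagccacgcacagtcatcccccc
Tdrd7 (chr4:45972581-45972830, plus strand): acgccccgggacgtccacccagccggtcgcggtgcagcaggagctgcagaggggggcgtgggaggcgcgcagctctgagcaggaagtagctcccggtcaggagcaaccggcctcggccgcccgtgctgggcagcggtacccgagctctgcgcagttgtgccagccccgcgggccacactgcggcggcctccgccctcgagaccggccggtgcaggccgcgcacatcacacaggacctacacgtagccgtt
Some genes have several start sites and so several windows. In the counts below a gene held a motif when any of its windows did, and its CG count is the highest of its windows. Among genes lower in MEF or NPC than in ES, 13 of 17 with a promoter entry held TCCCGC (76.5%). It was held by 2 of 12 measured genes that were not lower (16.7%), by 32.9% of all measured genes, by 40.6% of all measured genes lower in MEF or NPC than in ES and by 22.0% of 27025 genes in the RefSeq table. Among other meiotic and piRNA genes it was in 10 of 19 that were lower (52.6%) and in 4 of 11 that were not (36.4%). The lower germline genes have 15 to 48 CG dinucleotides in the window and a median of 21, the same median as all measured lower genes, beside 18 over all measured genes and 8 over the RefSeq table. Among the 9719 genes with a CG count in that range, 47.3% held TCCCGC, and among the 1768 of these that were lower in MEF or NPC than in ES the share was 50.3%. CACGTG was in 7 of the 17 lower genes (41.2%), in 4 of the 12 that were not lower (33.3%), in 8.09% of all genes and in 12.9% of those with a CG count in the same range. No test was made of these shares, and a match describes letters in a window, not a bound site.

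**Figure D2:**
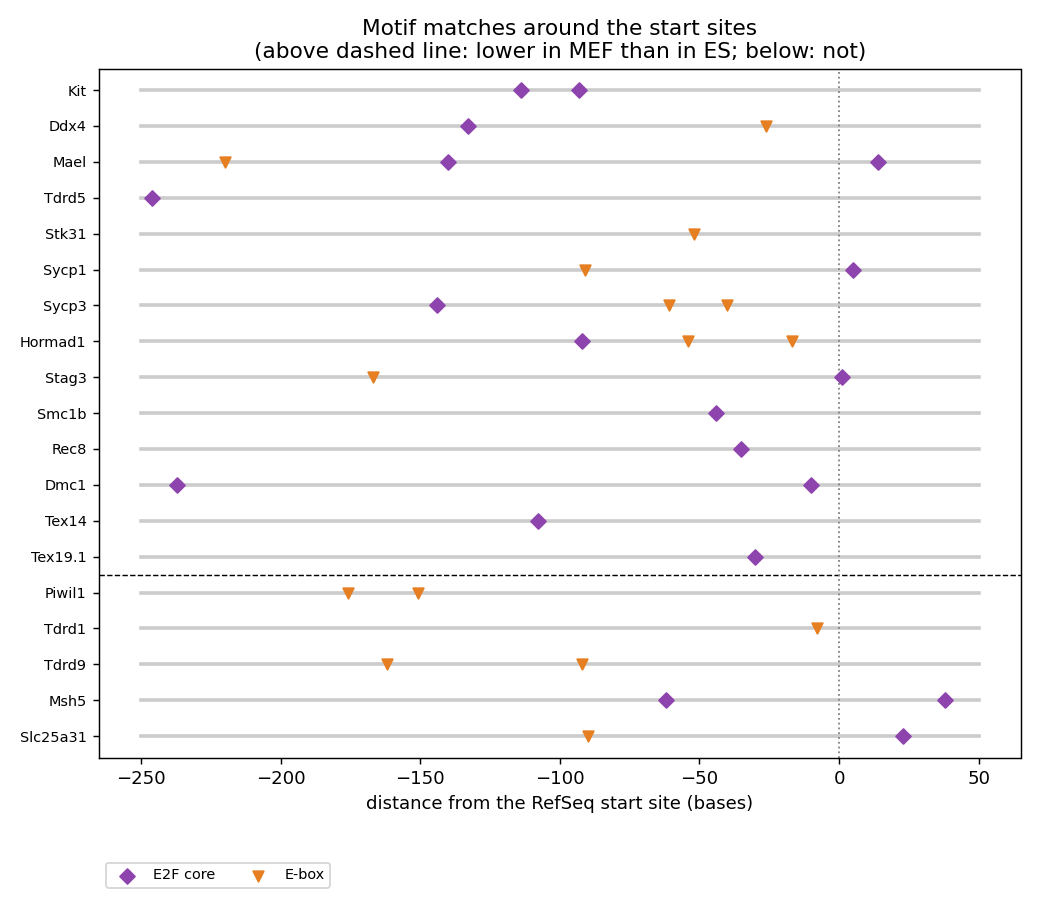
Position of each match around the RefSeq start site, in bases, for genes with at least 1 match in a 300-base window, with diamonds for TCCCGC (E2F core) and triangles for CACGTG (E-box). Genes above the dashed line were lower in MEF than in ES and those below it were not. The matches of Sycp3, Hormad1 and Ddx4 lie upstream of the start site, and most genes below the line hold CACGTG without TCCCGC.

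The genes that specify and protect germ cells were all lower in MEF than in ES, and 3 of the 4 measured were lower in NPC. Prdm14, a PR-domain factor needed for primordial germ cell specification and part of the pluripotency network of ES cells, read 4.08 and 4.07 on the MEF arrays, 4.39, 4.71 and 4.26 on the NPC arrays and 8.50, 8.31 and 8.36 on the ES arrays. MEF arrays were at the lower limit and NPC arrays just above it, far from the ES arrays. The difference was -4.31 ± 0.19 (SE, adjusted p = 2.61e-07) for MEF minus ES, a 19.9-fold fall, and -3.94 ± 0.17 (adjusted p = 1.62e-07) for NPC minus ES.

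Dnd1, an RNA-binding protein whose loss in mice depletes germ cells, read 5.67 and 4.71 in MEF, 5.19, 5.12 and 5.49 in NPC, and 8.17, 8.15 and 7.99 in ES. MEF and NPC arrays overlapped, and both lay far under the ES arrays. The fall was 7.53-fold in MEF (adjusted p = 2.16e-05) and 7.16-fold in NPC (adjusted p = 1.19e-05).

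Kit encodes the receptor for stem cell factor, on which migrating germ cells depend. Its levels were 4.76 and 4.47 in MEF, 5.67, 6.12 and 6.0 in NPC, and 8.81, 8.74 and 8.81 in ES, so the 3 cell types did not overlap. Kit was 18-fold lower in MEF (adjusted p = 2.38e-07) and 7.23-fold lower in NPC (adjusted p = 7.74e-07) than in ES. A further probe set of Kit gave smaller falls of the same direction, -2.19 for MEF minus ES and -1.86 for NPC minus ES. Kit is also known from mast cells and melanocytes. Of the 6 mast cell and progenitor markers none was called against ES, with Cpa3 and Ms4a2 between 4.08 and 4.66 in group means. Gata2 of that list averaged 7.08 in MEF, 5.22 in NPC and 6.12 in ES. Unlike Kit, it was called higher in MEF than in NPC, at 1.86 (adjusted p = 0.000267 in limma). Against ES, Gata2 passed the limit when 1 array was left out. It was at 1.17 for MEF minus ES without ES 3, at 1.02 without MEF 1 and at -1.10 for NPC minus ES without ES 1. Of the 5 melanocyte markers Pmel alone was called, as lower in MEF and NPC, and its MEF difference without MEF 1 was -0.86.

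Prdm1, the repressor also called Blimp1 that acts at the start of the germ cell lineage and in several somatic lineages, differed from the other genes of this group in NPC. It read 5.90 and 5.84 in MEF, 7.82, 6.53 and 6.46 in NPC, and 7.23, 7.22 and 7.14 in ES. NPC 1 was above all ES arrays, while NPC 2 and NPC 3 were below them. Prdm1 was lower in MEF than in ES by a difference of -1.33 ± 0.36 (SE, adjusted p = 0.0133), and the NPC difference was -0.26 (adjusted p = 0.567). Without NPC 1, the difference for NPC minus ES was -0.71, still under the limit of 1.

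Dazl and Ddx4, RNA regulators by which germ cells are commonly recognised, were low in MEF and NPC. Dazl, a translational regulator, read 4.28 on both MEF arrays, 4.61, 4.78 and 4.30 in NPC, and 7.00, 7.09 and 7.16 in ES. Ddx4, the DEAD-box helicase also called Vasa, read 4.64 and 4.30 in MEF, 4.02, 4.30 and 4.04 in NPC, and 8.09, 8.31 and 7.93 in ES. MEF and NPC arrays overlapped for Ddx4, and for both genes every ES array was clearly apart. Dazl fell 6.96-fold in MEF (adjusted p = 2.84e-06) and 5.71-fold in NPC (adjusted p = 2.44e-06). Ddx4 fell 12.5-fold in MEF (adjusted p = 9.16e-07) and 15.9-fold in NPC (adjusted p = 2.25e-07). The further probe set of Dazl read 4.06 in MEF, 4.05 in NPC and 7.29 in ES in group means.

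The 11 genes of the piRNA pathway and nuage divided into genes that fell, genes near the limit everywhere and Tdrd7. In both MEF and NPC, 5 were lower than in ES, 1 was higher and 5 were not called. Rnf17, a tudor and RING finger protein of nuage in male germ cells, read 4.54 and 4.58 in MEF, 4.33, 4.21 and 4.49 in NPC, and 9.68, 9.58 and 9.65 in ES. Its ES arrays lay close together and far above the rest. The fall was 33.8-fold in MEF (difference -5.08 ± 0.15 SE, adjusted p = 3.59e-08) and 39.2-fold in NPC (difference -5.29 ± 0.14 SE, adjusted p = 9.84e-09). The 3 further probe sets of Rnf17 gave differences between -3.44 and -3.85 in both comparisons.

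Mael and Piwil2 act in transposon silencing, Mael as a nuage protein and Piwil2 as a PIWI protein that binds piRNAs. Mael read 4.03 and 4.07 in MEF, 4.08, 4.48 and 4.07 in NPC, and 7.38, 7.42 and 6.95 in ES. Piwil2 read 4.08 and 4.07 in MEF, 4.13, 4.57 and 4.12 in NPC, and 6.94, 6.64 and 6.50 in ES. For both genes NPC 2 was the highest of the somatic arrays and was still far below the lowest ES array. Mael fell 9.18-fold in MEF (adjusted p = 2.76e-06) and 8.21-fold in NPC (adjusted p = 1.67e-06), and Piwil2 fell 6.13-fold in MEF (adjusted p = 7.76e-06) and 5.34-fold in NPC (adjusted p = 5.91e-06).

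Tdrd5 and Stk31, both tudor-domain proteins of germ cells, also fell. Tdrd5 read 4.58 and 4.83 in MEF, 4.79, 4.06 and 4.29 in NPC, and 6.0, 5.95 and 6.39 in ES. Stk31 read 4.12 and 4.26 in MEF, 4.43, 4.07 and 4.21 in NPC, and 6.20, 6.14 and 6.06 in ES. Neither gene had a somatic array within 1 unit of an ES array. The MEF minus ES difference was -1.41 for Tdrd5 and -1.94 for Stk31, and the NPC minus ES difference was -1.74 and -1.90 (adjusted p of 0.00119 or less in each).

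Tdrd7, a tudor protein of germ cell granules that is also known for its role in the lens, was the single gene of the 35 called higher outside ES. It read 7.30 and 7.21 in MEF, 7.59, 8.06 and 8.11 in NPC, and 5.59, 6.02 and 5.32 in ES. All MEF and NPC arrays were above all ES arrays. Tdrd7 rose 3.05-fold in MEF (difference 1.61 ± 0.23 SE, adjusted p = 0.000365) and 4.85-fold in NPC (difference 2.28 ± 0.21 SE, adjusted p = 1.86e-05). Its other probe set read 4.06 in MEF, 4.24 in NPC and 4.09 in ES, near the limit in every group, and did not show the rise. With the mean of both probe sets the MEF minus ES difference was 0.79, under the limit of 1.

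The genes of the synaptonemal complex and the chromosome axis were all lower in MEF and in NPC than in ES. Sycp3, which builds the lateral element along the chromosome axis, read 4.38 and 4.68 in MEF, 4.60 on each NPC array, and 9.90, 9.83 and 9.42 in ES. Its somatic arrays lay close to the array limit, and its falls were 36.4-fold in MEF (difference -5.19 ± 0.19 SE, adjusted p = 9.70e-08) and 34.7-fold in NPC (difference -5.12 ± 0.17 SE, adjusted p = 3.57e-08). Hormad1, a HORMA-domain protein of unsynapsed axes, read 4.26 and 4.20 in MEF, 4.24, 4.38 and 4.13 in NPC, and 6.87, 7.46 and 7.51 in ES. ES 1 was lowest of its group and still far above the other cells. Hormad1 fell 8.30-fold in MEF (adjusted p = 4.82e-06) and 8.19-fold in NPC (adjusted p = 2.27e-06).

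Sycp1, which forms the transverse filaments between homologues, read 4.27 and 4.46 in MEF, 4.28, 4.55 and 4.39 in NPC, and 5.74, 5.70 and 5.50 in ES. The groups were apart, at a difference of -1.28 ± 0.16 (SE, adjusted p = 0.000157) for MEF minus ES and -1.24 ± 0.15 (adjusted p = 9.12e-05) for NPC minus ES, the smallest falls called in MEF and NPC.

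The 3 germline cohesin subunits also fell in both cell types. Smc1b, the meiotic SMC subunit, read 4.09 and 4.11 in MEF, 4.11, 4.08 and 4.17 in NPC, and 6.79, 7.04 and 6.59 in ES. Rec8, the meiotic kleisin, read 4.41 and 4.10 in MEF, 4.16, 4.14 and 4.22 in NPC, and 7.12, 7.24 and 6.62 in ES. MEF and NPC arrays of both genes lay together near the limit. Smc1b fell 6.53-fold in MEF (adjusted p = 2.38e-06) and 6.44-fold in NPC (adjusted p = 1.10e-06), and Rec8 fell 6.66-fold in MEF (adjusted p = 8.13e-06) and 7.07-fold in NPC (adjusted p = 3.03e-06).

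Stag3, the germline STAG subunit, had another pattern. It read 4.33 and 4.92 in MEF, 6.85, 7.78 and 7.81 in NPC, and 8.91, 8.81 and 8.69 in ES. NPC arrays were well above the MEF arrays and below the ES arrays, with NPC 1 the lowest of them. Stag3 was 18.1-fold lower in MEF than in ES (difference -4.18 ± 0.29 SE, adjusted p = 3.97e-06) and 2.50-fold lower in NPC (difference -1.32 ± 0.26 SE, adjusted p = 0.00251). Without NPC 1 the NPC minus ES difference was -1.02 (adjusted p = 0.000403).

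Of the 5 genes of meiotic recombination, Dmc1 alone was called. Dmc1, the meiotic strand-exchange recombinase, read 4.08 and 4.07 in MEF, 4.03, 4.77 and 4.71 in NPC, and 7.80, 7.84 and 7.51 in ES. NPC 1 was at the limit and the other NPC arrays just above it, far below ES. It fell 12.5-fold in MEF (adjusted p = 3.08e-06) and 9.27-fold in NPC (adjusted p = 2.92e-06), and its other probe set gave differences of -2.81 and -2.86. Spo11, which makes the meiotic breaks, the MutS homologues Msh4 and Msh5, and Mei1, required for break formation, had group means between 4.12 and 5.25 in all 3 cell types.

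Of 5 genes named for testis expression or sperm, 3 fell in MEF and in NPC. Tex19.1, a mammalian protein of germ cells, placenta and pluripotent cells that restrains retrotransposons, read 4.95 and 4.80 in MEF, 4.91, 4.70 and 4.11 in NPC, and 9.39, 9.47 and 9.19 in ES. Its ES arrays were far above every other array. It fell 22.2-fold in MEF (difference -4.47 ± 0.24 SE, adjusted p = 7.56e-07) and 27.4-fold in NPC (difference -4.78 ± 0.21 SE, adjusted p = 2.13e-07).

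Tex14, required for the intercellular bridges between germ cells, read 4.15 and 4.14 in MEF, 5.16, 5.83 and 5.74 in NPC, and 8.08, 8.18 and 8.36 in ES. As for Kit and Stag3, its NPC arrays lay between the MEF and ES arrays. Tex14 was 16.8-fold lower in MEF (adjusted p = 8.79e-07) and 6.21-fold lower in NPC (adjusted p = 5.40e-06) than in ES. Tex15, which acts in meiotic repair and in piRNA-directed DNA methylation, read 5.42 and 5.25 in MEF, 4.21, 4.75 and 4.10 in NPC, and 7.33, 7.51 and 7.47 in ES. Here the NPC arrays were the lowest. Tex15 fell 4.28-fold in MEF (adjusted p = 4.76e-05) and 8.47-fold in NPC (adjusted p = 1.92e-06).

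Sohlh2, a bHLH factor of spermatogonia and oocytes, read 5.48 and 5.44 in MEF, 5.44, 5.14 and 5.59 in NPC, and 6.99, 6.69 and 7.07 in ES. Its MEF and NPC arrays were above the array limit and overlapped each other, below all ES arrays. The difference was -1.46 ± 0.20 (SE, adjusted p = 0.000243) for MEF minus ES and -1.53 ± 0.18 (adjusted p = 8.71e-05) for NPC minus ES.

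**Figure D3:**
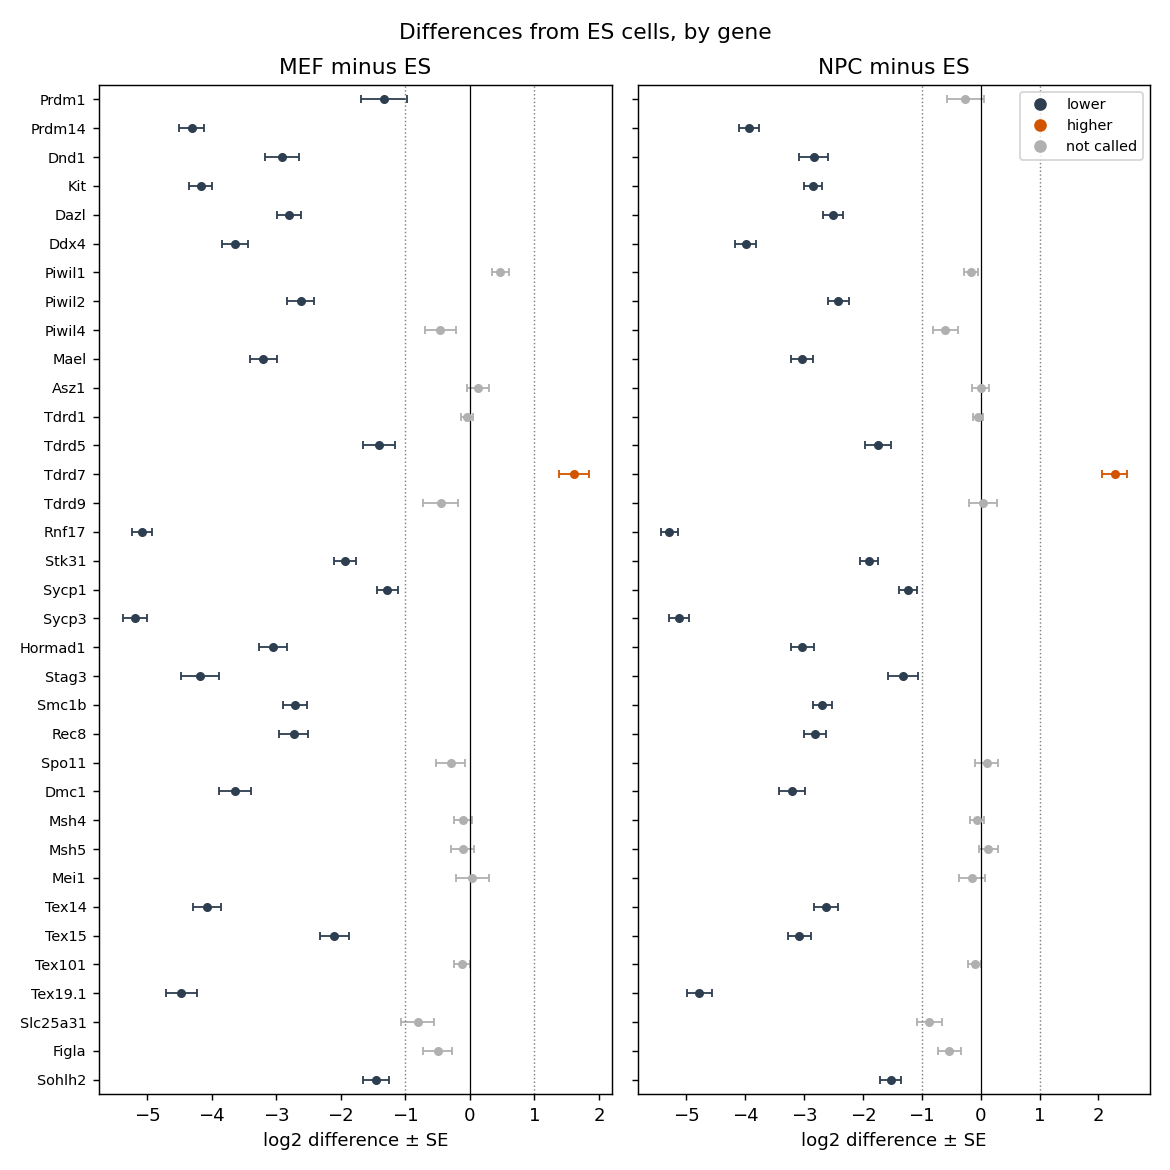
Difference from ES of each of the 35 genes, as MEF minus ES on the left and NPC minus ES on the right, in log2 units with bars of 1 SE. Dark points were called lower, orange points higher and grey points were not called, and dotted lines mark a difference of 1 in either direction. Sycp3 and Rnf17 lie furthest to the left in both panels, at -5.19 and -5.08 for MEF and -5.12 and -5.29 for NPC, and Tdrd7 is the orange point.

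Against ES, 12 genes were called in neither comparison: Piwil1, Piwil4, Asz1, Tdrd1, Tdrd9, Spo11, Msh4, Msh5, Mei1, Tex101, Slc25a31 and Figla. They include the PIWI proteins Piwil1 and Piwil4, the mitochondrial carrier Slc25a31 of sperm and the oocyte bHLH factor Figla. Their group means lay between 4.07 and 5.26 and their arrays between 4.02 and 5.47, near the lower limit in ES as well. Differences from ES ran from -0.81 to 0.47 for MEF and from -0.87 to 0.13 for NPC. At this brightness a difference can be missed, since values near the limit have little room to fall. Just under the limit of 1 was Slc25a31, with 4.73 and 4.17 in MEF, 4.76, 4.02 and 4.39 in NPC, and 5.41, 5.29 and 5.07 in ES. All its ES arrays were the highest, and its differences were -0.81 (adjusted p = 0.0255) for MEF and -0.87 (adjusted p = 0.0104) for NPC. Leaving out 1 array changed this, to -1.06 (adjusted p = 0.0225) for MEF without MEF 1 and to -1.06 (adjusted p = 0.00212) for NPC without NPC 1, both past the limit. Just past the limit were Sycp1 and Prdm1 in MEF and Sycp1 and Stag3 in NPC, with the values given above.

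Most of the set lay near the lower limit in both somatic cell types, with medians of 4.30 to 4.57 on their arrays. Differences between MEF and NPC can therefore be missed. Of the 35 genes, 4 were lower in MEF than in NPC and none was higher, beside a background of 7.95% lower and 10.5% higher among all genes (18.5% in all), with a median difference of -0.03 over the 35. At an unadjusted p under 0.05 in limma, Piwil1 and Tex15 were higher in MEF. The arrays of MEF and NPC overlapped for 22 of the 35 genes. MEF arrays lay below all NPC arrays for 10, beside 29.7% of all genes, and above them for 3, beside 28.3%. The 4 lower genes were Stag3 at -2.85 ± 0.29 (SE, adjusted p = 6.38e-05), Tex14 at -1.44 ± 0.22 (adjusted p = 0.000777), Kit at -1.32 ± 0.18 (adjusted p = 0.000326) and Prdm1 at -1.07 ± 0.36 (adjusted p = 0.0415). Without NPC 1 the first 3 were -3.19, -1.65 and -1.45 and remained called, while Prdm1 was -0.63 and was not. The further probe set of Kit differed by -0.32 between MEF and NPC. In the other direction, Tex15 was 0.98 higher in MEF than in NPC (adjusted p = 0.00633), just under the limit of 1. It passed the limit without ES 3, NPC 2 or MEF 2, at 1.0 to 1.20. Piwil1 was 0.63 higher (adjusted p = 0.00411) with MEF levels of 4.75 and 4.69 against 4.07, 4.11 and 4.09 in NPC.

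**Figure D4:**
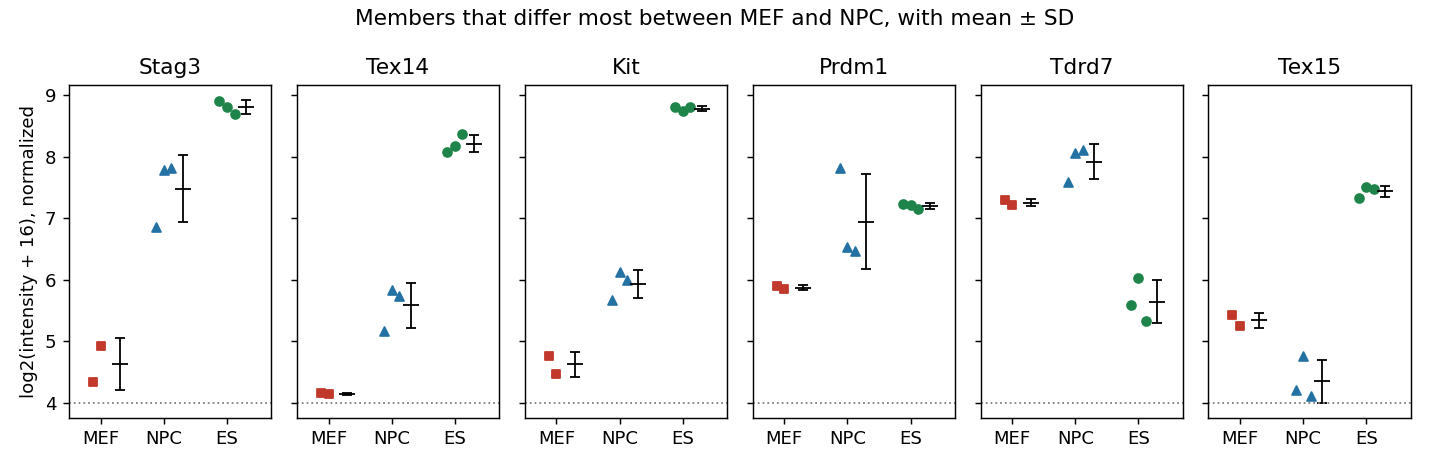
Levels of 6 genes on every MEF, NPC and ES array, as log2(intensity + 16), with the mean and SD of each group beside the points. For Stag3, Tex14 and Kit the NPC arrays lie between the MEF and ES arrays, for Prdm1 NPC 1 lies apart from the other NPC arrays, Tdrd7 is lowest in ES, and Tex15 is lowest in NPC.

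Further genes of the same processes were read from lists chosen for their function, with earlier results of these data known. The background for their counts against ES is 12.8% lower and 12.2% higher in MEF, and 12.9% and 10% in NPC. For MEF against NPC it is 7.95% lower and 10.5% higher. Of 21 other meiotic genes measured, 15 were lower in MEF than in ES and 14 were lower in NPC. None was higher in either, also at an unadjusted p under 0.05 in limma. Mei4 was not called in NPC against ES (-0.84), but was called lower without NPC 1 (-1.16). In MEF the largest falls were those of Ccnb1ip1, a ubiquitin ligase of crossover control, at -3.67, Syce2 of the central element at -3.39 and Rec114 of the break machinery at -3.01 (adjusted p of 0.000314 or less). In NPC they were Syce2 at -5.16, Rec114 at -3.93 and Mnd1, a partner of Dmc1, at -3.69 (adjusted p of 1.00e-05 or less). Mnd1 was higher in MEF than in NPC, by 1.24, and Psmc3ip was lower, at -1.43. Syce2 and Mlh3 were also called higher in MEF than in NPC, at 1.77 and 1.16, but not without NPC 3 (1.51 and 0.97) or without MEF 1 (1.84 and 1.07), and Syce2 not without MEF 2 (1.62). Without NPC 1, Mei4 (1.14) and Rec114 (1.05) were called higher as well, which makes 5 in place of 3. In the other direction, Brca2 was at -0.95 for MEF minus NPC and passed the limit without NPC 2 or MEF 1, at -1.04 in each. Stra8, which gates entry into meiosis and was picked out after its values were seen, averaged 4.83 in MEF, 5.22 in NPC and 7.52 in ES, with differences of -2.68 and -2.30.

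Of 13 other piRNA and germ cell RNA genes, 7 were lower in MEF than in ES and none was called higher, with 3 higher at an unadjusted p under 0.05 in limma. In NPC 6 were lower and 3 higher. Gtsf1, among the lower genes in MEF at -1.03, was not called without ES 3, MEF 1 or MEF 2 (-1.0 to -1.01). Tex19.2 was at -0.91 for NPC minus ES and was called lower without ES 1 (-1.14) or NPC 3 (-1.22). Dppa3, known from primordial germ cells and oocytes, averaged 4.63 in MEF, 4.74 in NPC and 9.78 in ES, and Tdrd12, a tudor protein of piRNA production, 4.14, 4.29 and 9.26. Gpat2, an acyltransferase-like protein of the same pathway, differed from ES by -2.37 in MEF and -2.55 in NPC. The genes higher in NPC than in ES were Tdrkh at 2.44, the helicase gene Ddx25 at 2.19 and Tdrd3 at 1.22 (adjusted p of 2.94e-05 or less). Ddx25 was lower in MEF than in NPC by a difference of -3.63 (adjusted p = 2.56e-07) and Tdrkh by -2.0 (adjusted p = 1.32e-05).

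Of 12 germ cell transcription regulators, 4 were lower and 1 higher in MEF than in ES, and 5 were lower and 2 higher in NPC. The 3 with the greatest falls, Sall4, Tfap2c and Dmrt1, differed by -6.66, -5.13 and -4.04 for MEF minus ES and by -6.90, -5.16 and -4.16 for NPC minus ES, and Sall4 and Tfap2c are also known outside germ cells. The other called genes in MEF were Taf4b at -1.44 and Tbpl1 at 1.09, the second of these not without MEF 1, and the higher genes in NPC were Zbtb16 at 2.11 and Crem at 1.49. Id4 was called lower in NPC than in ES, at -1.41, but not without NPC 1 (-0.8) or any single ES array (-1.33 to -1.47). Between MEF and NPC, Zbtb16 was lower in MEF, at -2.12. Crem was called lower in MEF than in NPC only without NPC 1, at -1.11 in place of -0.83. Id4 was called higher in MEF, at 1.53, with NPC levels of 5.20, 6.70 and 7.36, and without NPC 1 its difference was 0.93 and not called. That call was also lost without any other array except NPC 3, at 1.5 to 1.69. Genes of the later stages of gametes were mostly not called. Most of them lay near the lower limit in all 3 cell types, ES included, where a fall can be missed. Of all genes, 12.8% were called lower in MEF and 12.9% in NPC. Of 10 oocyte and zona genes, Ooep alone was lower in MEF (-4.73, adjusted p = 4.81e-07) and in NPC (-5.19, adjusted p = 1.15e-07), and of 12 late sperm genes Ldhc alone, at -1.84 in MEF (adjusted p = 0.000373) and -1.45 in NPC (adjusted p = 0.000800). The oocyte growth factor gene Gdf9 was lower in MEF than in NPC, at -1.22 (adjusted p = 0.000339).

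**Figure D5:**
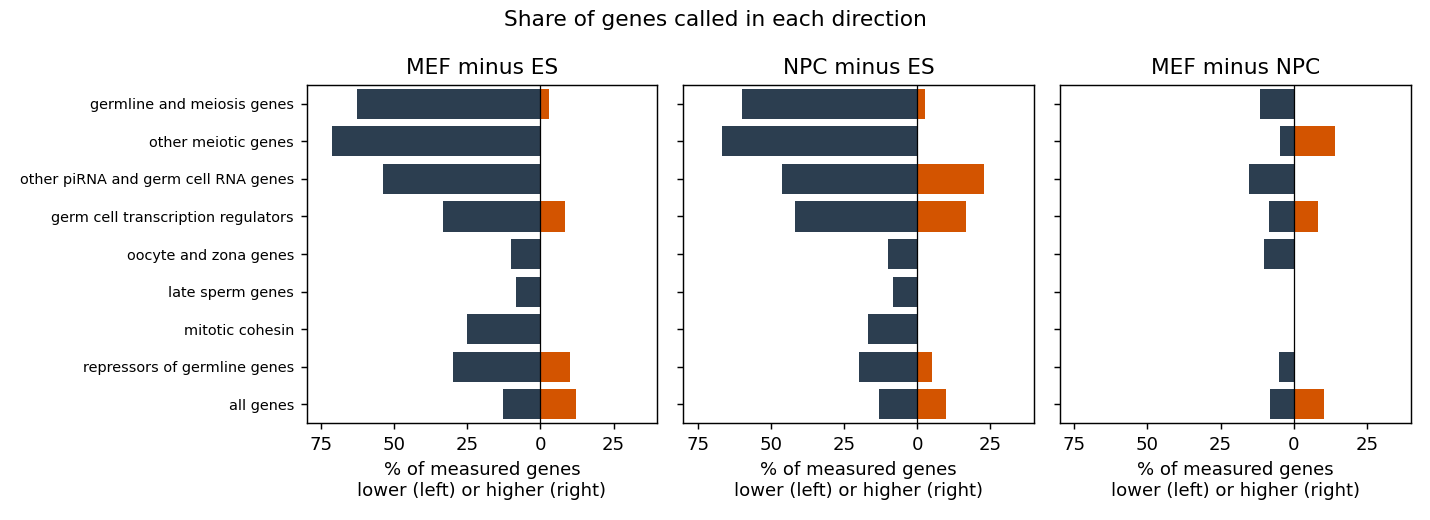
Share of the measured genes of 8 functional lists and of all genes called lower (bars to the left of 0) and higher (bars to the right), in percent, for MEF minus ES, NPC minus ES and MEF minus NPC. Among the lists drawn, which leave out the cell type markers, the germline and meiosis genes and the other meiotic genes have the longest bars to the left against ES, at 62.9% and 60.0% for the first, while the bar for all genes is 12.8% in MEF and 12.9% in NPC.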

How the data were processed

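RNA of MEF (2 arrays), NPC (3 arrays) and ES (3 arrays) was measured on a mouse whole-genome array, and the groups were taken from the sample titles. The deposited values are linear probe set intensity. Per the submitters' processing notes they come from GCOS 1.4, whose settings are not given in the sources used here. Control probe sets (64) were dropped. The annotation table pairs 34945 of the other 45037 with 1 gene, 932 with more than 1 and 9160 with no gene. Intensity plus 16 was taken to log2 and quantile normalized, and the brightest probe set stood for each of 18193 genes. The 35 measured germline genes have 46 probe sets, and 9 of them have more than 1. A single model of all 8 arrays was fitted in R 4.3.3 with limma 3.58.1 (lmFit, eBayes with a variance trend), for MEF minus ES, NPC minus ES and MEF minus NPC. Benjamini-Hochberg adjustment ran over all 18193 genes in each comparison. Calls needed a change of 1 log2 unit or more in either direction and an adjusted p under 0.05.

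The germline genes, the other gene lists, the motifs and the markers were chosen with earlier results of these data known. Every listed germline gene could be named. From the other lists up to 3 called genes in each direction and comparison were named by size of difference, or all called genes where 5 or fewer were called. Stra8 was added outside this rule. Leaving out each array for genes of the other lists was chosen after seeing the data. Lists are described by counts and medians, with no set test. No pairing by replicate number was seen: deviations of same-numbered arrays from their group means correlated at -0.02 to 0.023 over 7 pairs. Deviations within a group cancel, so these values are not independent, and a shared preparation by number was not tested. The number of arrays limits the precision. The procedure was tested on simulated data. Promoter windows and coordinates are those of RefSeq on GRCm38.p6.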

Additional observations from a re-analysis of the deposited data

How the results depend on the processing

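Across normalization, pseudocount, probe set rule, variance model, thresholds, the replicate block and leaving out each array, 774 of 794 values of single genes for MEF against ES kept direction and side of the threshold, as did 780 of 794 for NPC against ES and 765 of 794 for MEF against NPC, and none changed direction past a call. With the replicate number as a block the germline genes called were 22 lower and 1 higher for MEF against ES, 21 and 1 for NPC against ES, and 4 and 0 for MEF against NPC, as without it. Without each array in turn they were 21 to 22 lower and 1 higher, 21 to 22 lower and 1 higher, and 3 to 4 lower and 0 to 1 higher, and over all genes 4392 to 4634, 4093 to 4438 and 3096 to 3599 were called. For MEF against ES the count of higher germline genes was 0 with the mean of probe sets or a minimum difference of 2, and 2 with a pseudocount of 1. For MEF against NPC it was 1 with the deposited scaling or array weights and 2 with a pseudocount of 1 or a minimum difference of 0.5, and the lower count was 1 with a pseudocount of 64 or a minimum difference of 2. Over all genes, a pseudocount of 64 gave 2937, 2626 and 2103 calls, a minimum difference of 0.5 gave 7608, 7384 and 6274, a minimum of 2 gave 1560, 1509 and 1247, and the deposited scaling gave 5095 for MEF against NPC, where it moved the median of all genes to 0.43 (0.32 for MEF against ES). Prdm1 lost its MEF against ES call with the deposited scaling (-0.79, adjusted p = 0.0946 in limma) and, at about its full size, without MEF 1 (-1.32, adjusted p = 0.0694) or MEF 2 (-1.27, adjusted p = 0.0785). It lost its MEF against NPC call in 13 of 23 alternatives, among them median centring (-0.87) and each left-out array other than NPC 2 and NPC 3. Kit and Tex14 lost their MEF against NPC call with a pseudocount of 64 (-0.59 and -0.55), and Kit with the mean of probe sets (-0.82). Among genes lower in MEF the median difference from ES was -5.38 with a pseudocount of 1 and -1.63 with 64, beside -2.98 at 16, since the pseudocount sets how far values near 0 can fall.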

Other observations

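Genes known to repress germline genes were measured in all 3 cell types. Of 20 such genes, 6 were lower and 2 higher in MEF than in ES, and 4 were lower and 1 higher in NPC. Over all genes, 12.8% were lower and 12.2% higher in MEF, and 12.9% and 10% in NPC. Of the lower genes in MEF, 1 at -1.04 was not called without ES 3 (-0.99). The de novo DNA methyltransferase gene Dnmt3b differed by -3.52 in MEF (adjusted p = 1.13e-07) and -3.50 in NPC (adjusted p = 4.04e-08). Mga averaged 7.90 in MEF, 7.85 in NPC and 9.45 in ES, and its partner in the same Polycomb complex Pcgf6 averaged 8.36, 8.49 and 9.94. L3mbtl2 of that complex differed by -1.24 in NPC (adjusted p = 1.06e-05). The higher genes in MEF were Yaf2, with a difference of 1.69 (adjusted p = 0.000966), and E2f6, with 1.30 (adjusted p = 2.75e-05), and in NPC Yaf2 alone, with 2.77 (adjusted p = 2.04e-05). Yaf2 was also called lower in MEF than in NPC, at -1.07 (adjusted p = 0.0153), but not without NPC 2, NPC 3 or either MEF array (-0.89 to -1.11).

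Of 12 genes of the cohesin of dividing somatic cells, 3 were lower in MEF than in ES and 2 in NPC. The shares over all genes were 12.8% and 12.9%. Esco2, an acetyltransferase of cohesin, averaged 7.17 in MEF, 7.69 in NPC and 10.11 in ES, and Cdca5, also called sororin, 8.80, 9.31 and 10.82. Wapl, which releases cohesin, was lower in MEF, at -1.46 (adjusted p = 1.04e-05), and its NPC minus ES difference passed the limit without ES 3 (-1.08) or NPC 1 (-1.02). Smc3 (-1.02) and Pds5a (-1.01) were also called lower in MEF without ES 1. Stag2 was called higher in NPC than in ES without NPC 2 (1.05) or NPC 3 (1.0).

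For 3 of the germline genes another measured gene starts within 1000 bases on the opposite strand. Gpc2, a glypican gene 572 bases from Stag3, averaged 5.09 in MEF, 6.51 in NPC and 5.22 in ES, and was higher in NPC than in ES by 1.30 (adjusted p = 0.00408). Rad51c, a recombination gene 111 bases from Tex14, averaged 5.71 in MEF, 6.59 in NPC and 7.78 in ES, lower in MEF by a difference of -2.07 (adjusted p = 9.99e-06) and in NPC by -1.19 (adjusted p = 0.000162). Ribc2, 141 bases from Smc1b, averaged 4.26 in MEF, 5.02 in NPC and 5.12 in ES, and was not called.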
